A study of Rattus norvegicus with 31 samples.

Results

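Hepatic expression of 9 genes of gluconeogenesis and the fasting response was examined in rats dosed with the pesticides thiacloprid (THI), imazalil (IMZ) and clothianidin (CTD), alone and as pairs. The genes were selected by symbol as Pck1, G6pc, Fbp1, Tat, Igfbp1, Irs2, Foxo1, Ppargc1a and Pfkfb3. A row of that symbol was found for 8 of the 9 among 26312 genes in the count table, and all 8 were among the 19904 genes tested. G6pc had no row under its own symbol. All animals were young adult female Wistar rats of the Crl:WI stock, dosed once a day by oral gavage for 28 days with 0.5% carboxymethyl cellulose in water as the vehicle. The 8 control rats received the vehicle alone. THI was given at 108 mg/kg body weight per day to 4 rats, IMZ at 93 to 4 rats and CTD at 288 to 3 rats. The authors marked this CTD group as having a rat or more killed in moribund condition. The mixtures held THI + IMZ at 54 and 46, THI + CTD at 54 and 134, and IMZ + CTD at 46 and 135 mg/kg body weight per day, with 4 rats each. THI and CTD are neonicotinoid insecticides and IMZ is an imidazole fungicide. The sources used here do not state whether the rats were fasted or the hour at which the livers were taken.

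During fasting the liver releases glucose, first from glycogen and then by gluconeogenesis from lactate, glycerol and amino acids. Glucagon, acting through cyclic AMP and CREB, and glucocorticoids raise transcription of the genes of this pathway, whereas insulin lowers it, in large part by keeping the transcription factor FOXO1 out of the nucleus. Many of these mRNAs turn over quickly, so their levels follow food intake and the time of day.

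The values are CPM, the count of a gene for each 1000000 counts of its library, scaled between libraries by the trimmed mean of M values (TMM). CPM is not corrected for transcript length, so a gene is compared between rats and not with another gene. The 31 libraries held 31820322 to 101230067 counts, with a median of 40989382. The median among controls was 60475417 and the CTD libraries held 31820322 to 38435675, so the controls were the more deeply sequenced. The median Spearman correlation of a library with the others of its group was 0.972 to 0.989, over genes with a mean log2 CPM above 1. All 8 hepatocyte markers were detected in every library, with albumin at 102900 to 184200 CPM. In these bulk liver samples, fewer cells of a type and less RNA per cell cannot be told apart. A gene was called at an adjusted p under 0.05, from the quasi-likelihood test of edgeR with Benjamini-Hochberg adjustment over all genes tested. Because all 6 treatments were compared with the same 8 controls, their results are not independent of each other. Where rats are said to lie below all controls, the share of all genes for which this holds was not computed.

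Promoter sequences are shown for Igfbp1 and Tat, which were called in 2 treatments, and for Pck1, the enzyme with which the pathway is usually introduced. Each holds the 250 bases before the start site in the RefSeq table (GRCr8, plus strand, 5′ to 3′), a build that differs from the Rnor_5.0 build of the counts. Capitals mark a match to one of the motifs described after them.
Igfbp1, chr14:86261027-86261276: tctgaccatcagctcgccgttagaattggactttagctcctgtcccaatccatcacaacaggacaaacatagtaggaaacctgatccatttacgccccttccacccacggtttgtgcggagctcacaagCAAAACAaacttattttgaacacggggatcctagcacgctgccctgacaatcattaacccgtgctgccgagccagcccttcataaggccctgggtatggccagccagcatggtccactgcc
Tat, chr19:54856354-54856603: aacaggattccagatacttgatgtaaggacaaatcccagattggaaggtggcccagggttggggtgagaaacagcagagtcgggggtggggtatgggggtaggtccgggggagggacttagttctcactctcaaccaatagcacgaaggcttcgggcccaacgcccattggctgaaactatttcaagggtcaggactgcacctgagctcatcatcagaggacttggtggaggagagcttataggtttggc
Pck1, chr3:182348322-182348571: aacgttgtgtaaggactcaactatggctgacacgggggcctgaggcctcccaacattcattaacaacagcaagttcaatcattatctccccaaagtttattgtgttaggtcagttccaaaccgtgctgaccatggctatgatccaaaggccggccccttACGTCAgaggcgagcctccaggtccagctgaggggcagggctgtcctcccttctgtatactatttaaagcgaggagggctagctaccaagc
The motifs searched on both strands of the 300-base windows, which also take in 50 bases after the start, were the cyclic AMP response element TGACGTCA, the FOXO site GTAAACA, the insulin response element core CAAAACA, the E-box CACGTG and the D-box TTATGTAA. A window was available for 8 of the 9 genes, G6pc included under its RefSeq symbol G6pc1, and Irs2 had no entry. CAAAACA lay 121 to 115 bases before the Igfbp1 start, and on the opposite strand in the G6pc1 window, and 6.28% of 33469 promoter windows held it. TGACGTCA was found in the Ppargc1a window only, against 1.83% of all windows, and CACGTG in the Pfkfb3 window only, against 6.42%. GTAAACA and TTATGTAA were found in none of the 8 windows, against 3.78% and 0.893% of all windows. The shorter ACGTCA, which overlaps the cyclic AMP response element and was added later, lay 91 to 86 bases before the Pck1 start and inside the Ppargc1a element, and 7.94% of all windows held it. The Tat, Fbp1 and Foxo1 windows held no match to these letters. A match is a description of the sequence, and binding was not measured.

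**Figure D1:**
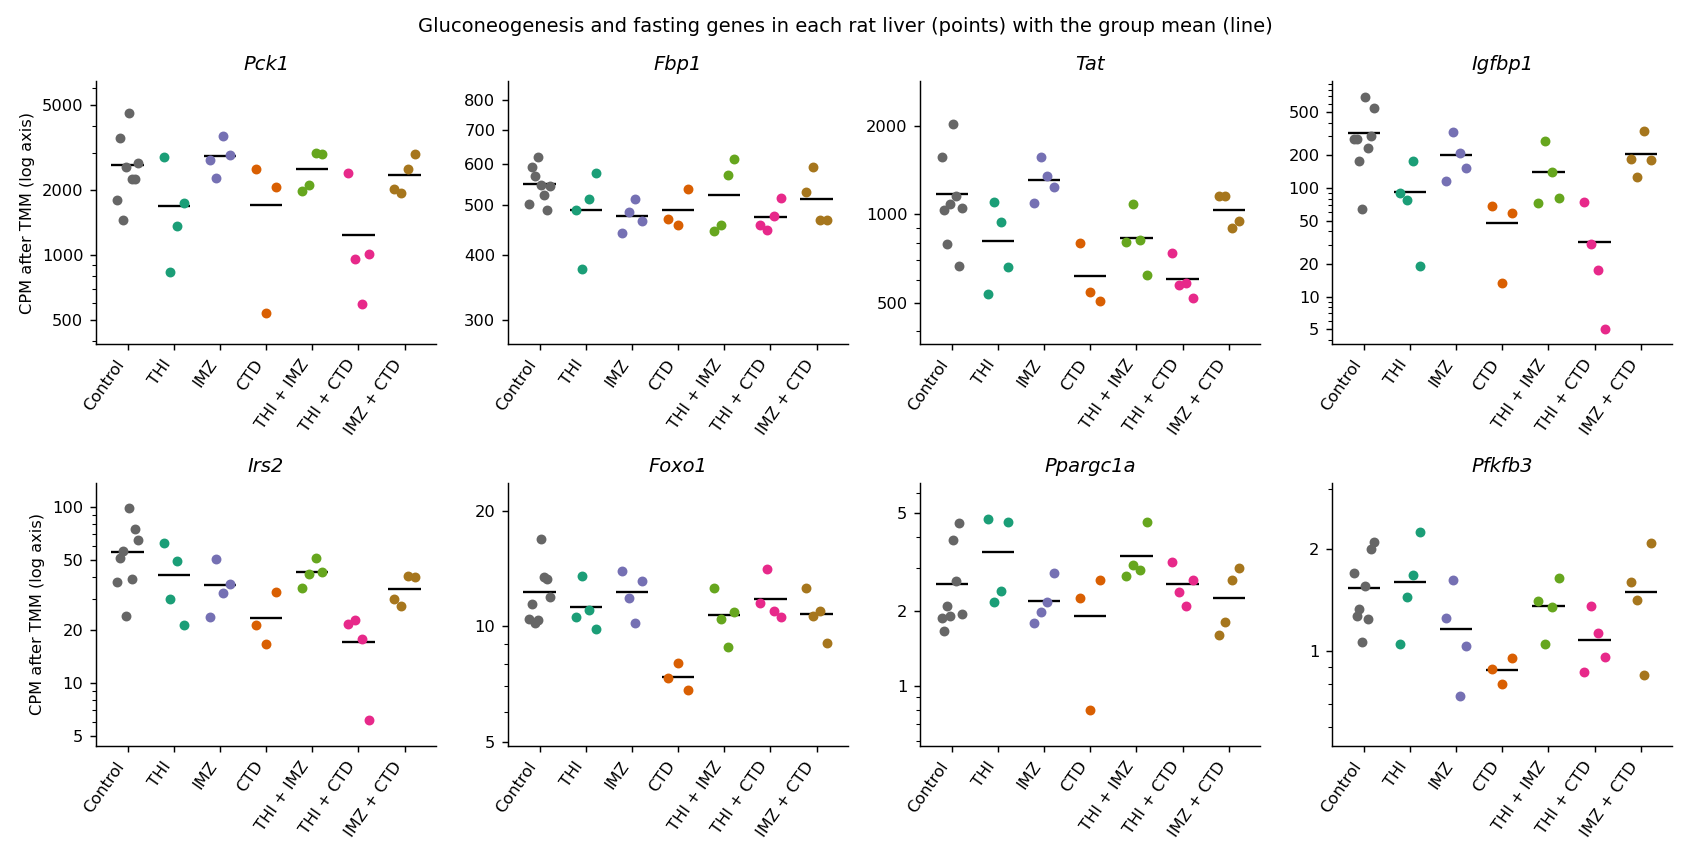
CPM after TMM scaling, on log axes, for the 8 genes with a row, in each of 31 rat livers. Points are rats and lines are group means. All 3 CTD rats lie below all 8 controls for Foxo1 (6.83 to 8.04 against 10.2 to 16.9 CPM) and for Pfkfb3. By edgeR, Pfkfb3 was not called in CTD. All 4 THI + CTD rats lie below all controls for Irs2 (6.15 to 22.9 against 23.99 to 98.3 CPM). The share of all genes with such a separation was not computed.

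Among 8 controls, the genes differed widely in how much they varied from rat to rat. Fbp1, which encodes fructose-1,6-bisphosphatase, was the steadiest, at 549 ± 44.8 CPM (SD, n = 8) or a coefficient of variation of 8.16%. Foxo1 followed with 18.5% and Pfkfb3 with 24.3%. Tat (37.4%), Pck1 (37.8%), Ppargc1a (41.5%) and Irs2 (42.2%) varied more. Igfbp1, the insulin-repressed secreted binding protein for insulin-like growth factors, varied most, by 62.6%, and its highest control was 10.8-fold above its lowest. Control replicate 5 had the highest level among the controls of Pck1, Igfbp1, Tat, Irs2 and Foxo1. Control replicate 4 had the lowest Igfbp1, Irs2 and Pfkfb3.

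Of the 8 genes, 4 differed among the 7 groups in the joint F test of edgeR, against 9.51% of all genes tested. They were Igfbp1 (adjusted p = 0.0037), Tat (adjusted p = 0.00486), Irs2 (adjusted p = 0.0104) and Foxo1 (adjusted p = 0.0251). Pck1 and Pfkfb3 had unadjusted p of 0.0382 and 0.0492, with adjusted p of 0.181 and 0.21. Against control, 4 of 8 genes were called in CTD, where 12.7% of all genes were called, and all 4 were lower. In THI + CTD 3 of 8 were called, all lower, against 4.39% of all genes. None of the 8 was called in THI, IMZ, THI + IMZ or IMZ + CTD, where 0.543%, 0.251%, 1.18% and 1.46% of all genes were called. At an unadjusted p under 0.05, edgeR gave 2 genes in THI, 2 in IMZ, 2 in THI + IMZ and 1 in IMZ + CTD, and the Wald test of DESeq2 also called 0 in each of these treatments. The median log2 fold change over the 8 genes was -0.76 in CTD and -0.73 in THI + CTD, against -0.07 and -0.03 over all genes tested. The medians were -0.31 in THI, -0.22 in IMZ, -0.18 in THI + IMZ and -0.18 in IMZ + CTD, and all genes had medians of -0.01 to -0.03 there.

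**Figure D2:**
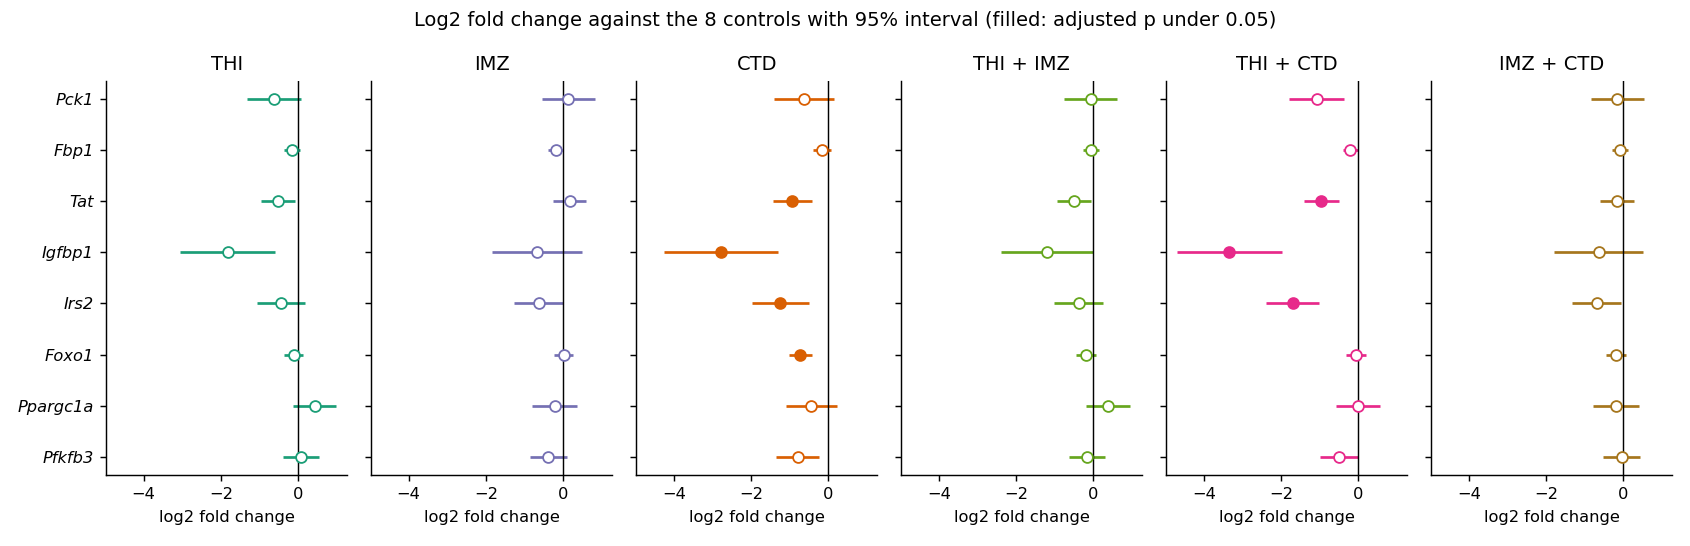
Log2 fold change of 8 genes in each treatment against the 8 controls, with 95% intervals. Filled points passed an adjusted p of 0.05 in edgeR. They are Tat, Igfbp1, Irs2 and Foxo1 in CTD and Tat, Igfbp1 and Irs2 in THI + CTD, all to the left of 0.

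Pck1 encodes the cytosolic phosphoenolpyruvate carboxykinase, an early and highly regulated step of gluconeogenesis. Controls ranged from 1465 to 4600 CPM with a median of 2415. The 4 THI + CTD rats had 2410, 957, 597 and 1017 CPM, so that 3 of them lay below every control and 1 lay at the control median. The log2 fold change was -1.08 ± 0.35 (SE), or 2.12-fold lower, with an adjusted p of 0.073 in edgeR, and it did not pass the threshold. It was called with DESeq2 (adjusted p = 0.0326), and by edgeR without THI + CTD replicate 1, with a log2 fold change of -1.62 (adjusted p = 0.01). The CTD rats had 2506, 540 and 2073 CPM, with a log2 fold change of -0.63 ± 0.38 (adjusted p = 0.322). Only CTD replicate 2 lay below the controls. The THI rats had 2859, 835, 1364 and 1747 CPM, of which 2 lay below the controls (log2 fold change -0.63 ± 0.34, adjusted p = 0.626). IMZ, at 2296 to 3573 CPM, THI + IMZ, at 1998 to 2977, and IMZ + CTD, at 1941 to 2941, stayed inside the control range. The 95% intervals of their log2 fold changes spanned -0.54 to 0.81, -0.75 to 0.61 and -0.85 to 0.52.

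Fbp1 was called in none of the treatments by edgeR or DESeq2. Group means lay between 474 and 523 CPM, against 549 in controls, which is 86.4% to 95.3% of the control mean. Its largest shift was in THI + CTD, with a log2 fold change of -0.21 ± 0.10 and a 95% interval of -0.41 to -0.01 (adjusted p = 0.259). The unadjusted p was under 0.05 there and in IMZ (0.0415 and 0.0499).

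Tat encodes tyrosine aminotransferase, which breaks down tyrosine and is a classical glucocorticoid-induced liver enzyme. Controls ranged from 665 to 2032 CPM with a median of 1069. The CTD rats had 797, 544 and 505 CPM, the lower 2 of them below all controls. Tat was 1.91-fold lower in CTD (log2 fold change -0.93 ± 0.25, adjusted p = 0.0106 in edgeR). The THI + CTD rats had 737, 576, 584 and 517 CPM, and 3 of the 4 lay below all controls. Tat was 1.94-fold lower in THI + CTD (log2 fold change -0.96 ± 0.22, adjusted p = 0.00871). In THI (535, 1099, 944 and 664 CPM) and THI + IMZ (805, 1087, 821 and 623 CPM) the log2 fold changes were -0.53 ± 0.22 and -0.49 ± 0.22, with adjusted p of 0.452 and 0.377. IMZ, at 1098 to 1566 CPM, and IMZ + CTD, at 901 to 1154, stayed inside the control range.

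Igfbp1 had the largest fitted fold change of the 8 genes in each single compound and each mixture, with the exception of IMZ + CTD, where that of Irs2 was larger. Controls ranged from 64.2 to 691 CPM with a median of 285. The CTD rats had 69.0, 13.3 and 59.5 CPM, so that 2 of 3 lay below the lowest control and the other lay just above it. This was 6.84-fold lower (log2 fold change -2.77 ± 0.73, adjusted p = 0.00944 in edgeR). The THI + CTD rats had 74.6, 30.4, 17.8 and 5.09 CPM, and 3 of 4 lay below all controls. The gene was 10.1-fold lower there, with a 95% interval of the log2 fold change from -4.69 to -1.99 (adjusted p = 0.00252). The THI rats had 90.6, 77.5, 178 and 19.2 CPM. Their log2 fold change of -1.83 ± 0.60 had an unadjusted p of 0.00497 and an adjusted p of 0.273, and was not called. THI + IMZ, at 72.6, 269, 140 and 80.6 CPM, had a log2 fold change of -1.20 ± 0.58 (adjusted p = 0.442). In IMZ, at 116 to 327 CPM, and in IMZ + CTD, at 126 to 337 CPM, every rat lay inside the control range.

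Irs2 encodes insulin receptor substrate 2, an adaptor that carries the insulin signal from its receptor and that is itself raised by FOXO factors and cyclic AMP. Controls ranged from 23.99 to 98.3 CPM with a median of 53.9. The THI + CTD rats had 21.6, 22.9, 17.8 and 6.15 CPM, all below the lowest control. This was 3.26-fold lower (log2 fold change -1.71 ± 0.33, adjusted p = 0.00224 in edgeR). The CTD rats had 21.4, 16.6 and 32.9 CPM, of which 2 lay below the controls, and the gene was 2.37-fold lower (log2 fold change -1.24 ± 0.36, adjusted p = 0.0205). In IMZ (23.6 to 50.7 CPM) and IMZ + CTD (27.3 to 40.6 CPM) the log2 fold changes were -0.64 ± 0.31 and -0.70 ± 0.31, with unadjusted p of 0.0493 and 0.0342 and adjusted p of 0.616 and 0.339. In THI and THI + IMZ the log2 fold changes were -0.45 ± 0.31 and -0.39 ± 0.31.

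Foxo1 encodes the insulin-restrained transcription factor named above. Controls ranged from 10.2 to 16.9 CPM with a median of 11.7. The CTD rats had 7.34, 8.04 and 6.83 CPM, below all controls and below every rat of the other treatments, whose lowest value was 8.81. Foxo1 was 1.66-fold lower in CTD (log2 fold change -0.73 ± 0.15, adjusted p = 0.000791 in edgeR). In THI + CTD, whose CTD dose was lower, the rats had 11.5, 14.1, 10.9 and 10.6 CPM, all within the control range. The log2 fold change there was -0.06 ± 0.12 with a 95% interval of -0.31 to 0.20. The other log2 fold changes were -0.20 in THI + IMZ, -0.18 in IMZ + CTD, -0.13 in THI and 0.00 in IMZ, and none was called.

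Ppargc1a and Pfkfb3 were detected with few reads. Ppargc1a encodes the coactivator PGC-1α, which raises gluconeogenic and mitochondrial genes, and its counts were 31 to 319 per library. Controls had 1.66 to 4.55 CPM, and the group means ran from 1.91 CPM in CTD to 3.47 in THI. None of its differences was called. The log2 fold changes were 0.42 ± 0.28 in THI, 0.37 ± 0.28 in THI + IMZ and -0.44 ± 0.33 in CTD. Pfkfb3 encodes a phosphofructokinase-2 isoform that favours glycolysis, and its counts were 29 to 176 per library. The CTD rats had 0.884, 0.801 and 0.954 CPM, all below the lowest control of 1.06, with a log2 fold change of -0.80 ± 0.28 and an adjusted p of 0.053 in edgeR. The gene was called in CTD by DESeq2 (adjusted p = 0.0267) and by edgeR with a stricter count filter (adjusted p = 0.0384). In THI + CTD its log2 fold change was -0.50 ± 0.24 (adjusted p = 0.266).

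Of the 4 calls in CTD, a group of 3 rats, that of Foxo1 held when any 1 of the 3 treated rats or 8 controls was left out, with log2 fold changes of -0.79 to -0.64. Without CTD replicate 2, the rat with the lowest Pck1, Igfbp1, Irs2 and Ppargc1a of the group, Foxo1 alone was called. The adjusted p was then 0.0706 for Igfbp1, 0.0685 for Tat and 0.131 for Irs2, with log2 fold changes of -2.33, -0.85 and -1.04. Without replicate 1, Irs2 was not called (log2 fold change -1.18, adjusted p = 0.0982), and without replicate 3, Tat was not (-0.81, adjusted p = 0.0687). Over all genes, calls in CTD fell from 2518 to 1470, 1781 and 2311 without replicates 1, 2 and 3. In THI + CTD, Igfbp1, Tat and Irs2 stayed called when any 1 of the 4 treated rats or 8 controls was left out.

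Whether the single compounds differed from each other at these doses was tested directly. Foxo1 was lower in CTD than in THI (log2 fold change -0.60 ± 0.16, adjusted p = 0.0184 in edgeR) and was the only gene of the 8 called there, against 6.62% of all genes. It was not called without THI replicate 2, CTD replicate 1 or CTD replicate 3, with adjusted p of 0.0833, 0.078 and 0.0724. Without THI replicate 1, 2 of the 8 genes were called, Pfkfb3 (adjusted p = 0.0467) beside Foxo1. CTD and IMZ differed in 2 of the 8 genes, against 4.67% of all genes. These were Foxo1 (log2 fold change -0.73 ± 0.16, adjusted p = 0.00609) and Tat (-1.09 ± 0.27, adjusted p = 0.0161), both lower in CTD. Igfbp1 was 4.27-fold lower in CTD than in IMZ (log2 fold change -2.09 ± 0.74), which was not called by edgeR (adjusted p = 0.102) but was by DESeq2 (adjusted p = 0.0404). Tat was not called without IMZ replicate 2, CTD replicate 2 or CTD replicate 3, with adjusted p of 0.0564, 0.0745 and 0.072. Between THI and IMZ none of the 8 genes was called by edgeR or DESeq2, 1 gene, Tat, had an unadjusted p under 0.05 (0.008), and 0.01% of all genes were called. The log2 difference of Igfbp1 between CTD and THI was -0.95, with a 95% interval of -2.39 to 0.50, which does not show that they act alike.

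**Figure D3:**
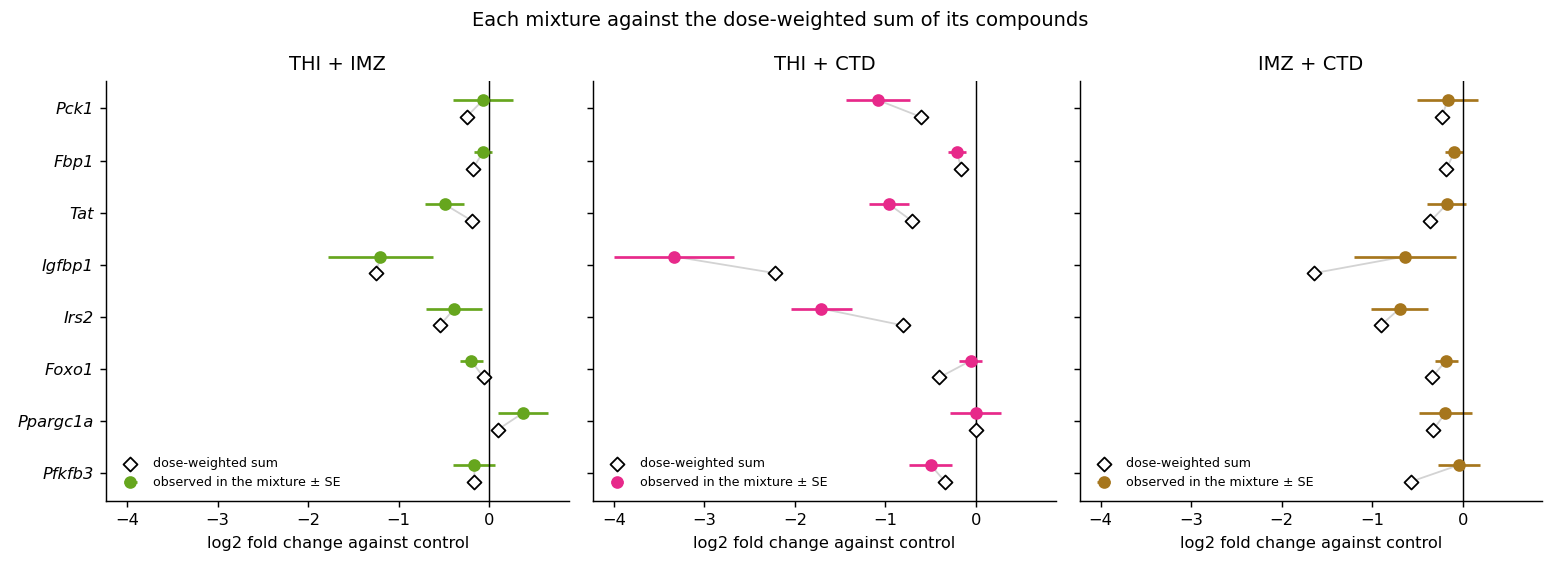
Observed log2 fold change in each mixture (filled circles, ± SE) and the dose-weighted sum of the log2 fold changes of its compounds (open diamonds), against control. In THI + CTD, Igfbp1 and Irs2 lie left of their sums (-3.34 against -2.22 and -1.71 against -0.81) and Foxo1 lies right of its sum, while in IMZ + CTD the 8 genes lie to the right.

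To ask whether the mixtures departed from additivity, each was compared with the sum of its compounds' log2 fold changes, weighted by the ratio of doses (0.5 for THI and IMZ, 0.47 for CTD). None of the 8 genes was called for a departure from the sum in any mixture by edgeR or DESeq2. The shares of all genes called by edgeR were 0.0151% in THI + IMZ, 0.286% in THI + CTD and 1.16% in IMZ + CTD. Before adjustment, 0, 2 and 1 genes had a p under 0.05. In THI + CTD these were Irs2, with a difference of -0.90 ± 0.32 (unadjusted p = 0.00943, adjusted p = 0.336), and Foxo1, with a difference of 0.35 ± 0.13 (unadjusted p = 0.0102, adjusted p = 0.342). In IMZ + CTD it was Pfkfb3, with a difference of 0.53 ± 0.24 (adjusted p = 0.3). Igfbp1 differed from its sum by -1.12 ± 0.59 in THI + CTD and by 1.00 ± 0.55 in IMZ + CTD, and both 95% intervals held 0. In THI + CTD 7 of the 8 genes lay below their sums, and in IMZ + CTD 0 of the 8. Their median differences were -0.21 and 0.17, against -0.009 and -0.015 over all genes tested. Some differences were small, such as that of Ppargc1a in THI + CTD (-0.0065). The 8 genes share rats and controls, and the share of all genes below their sums was not computed.

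**Figure D4:**
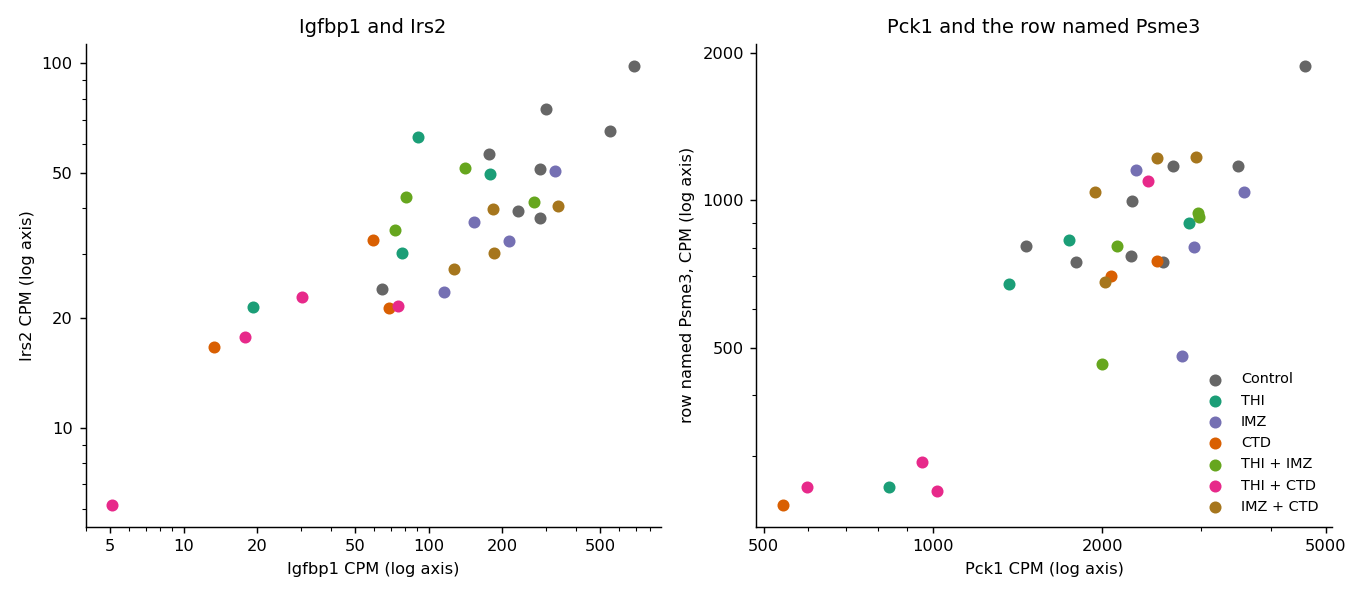
CPM of Igfbp1 against Irs2 (left) and of Pck1 against the row named Psme3 (right) in each of 31 rats, on log axes, coloured by group. The THI + CTD rat with the lowest Igfbp1 (5.09 CPM) also had the lowest Irs2 (6.15 CPM).

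Across rats, with the group means removed, some of the genes varied together. Igfbp1 and Irs2 had a Pearson r of 0.807 over 31 rats and of 0.844 over the 8 controls, and each was the gene most like the other among 9967 genes searched. The points share library depth and dissection, and the values are a description. Pck1 and Ppargc1a had an r of 0.664 over 31 rats but of 0.246 in the controls. Tat was most like Ccrn4l, which encodes the clock-controlled deadenylase-family protein nocturnin, with an r of 0.857, and had an r of 0.625 with Tdo2, another glucocorticoid-induced enzyme of amino acid breakdown. Nfil3, a clock-linked repressor, followed Igfbp1 in likeness to Irs2, with an r of 0.755. The genes most like Ppargc1a, Foxo1 and Pfkfb3 were Nav1 (0.79), RGD1309762 (0.78) and Btbd9 (0.667). Tat had an r of 0.044 with Irs2 and of 0.063 with Pck1 over 31 rats. In the controls these were 0.047 and 0.51.

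The gene most like Pck1 was a row with the symbol Psme3 (ENSRNOG00000036806), with an r of 0.832 over 31 rats. In the RefSeq table Psme3 is the symbol of a proteasome activator gene and also an alternate symbol of G6pc1, the glucose-6-phosphatase gene named G6pc in the selection. Which of these genes the row holds is not settled here, and it was not counted among the 8. Its controls ranged from 747 to 1883 CPM with a median of 903. The THI + CTD rats had 1095, 292, 260 and 255 CPM, and the 3 rats that were low for this row were the 3 that were low for Pck1. The log2 fold change was -1.13 ± 0.38 (adjusted p = 0.0866 in edgeR). CTD replicate 2 and THI replicate 2, the rats with the lowest Pck1 of their groups, had 239 and 259 CPM, below all controls.

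**Figure D5:**
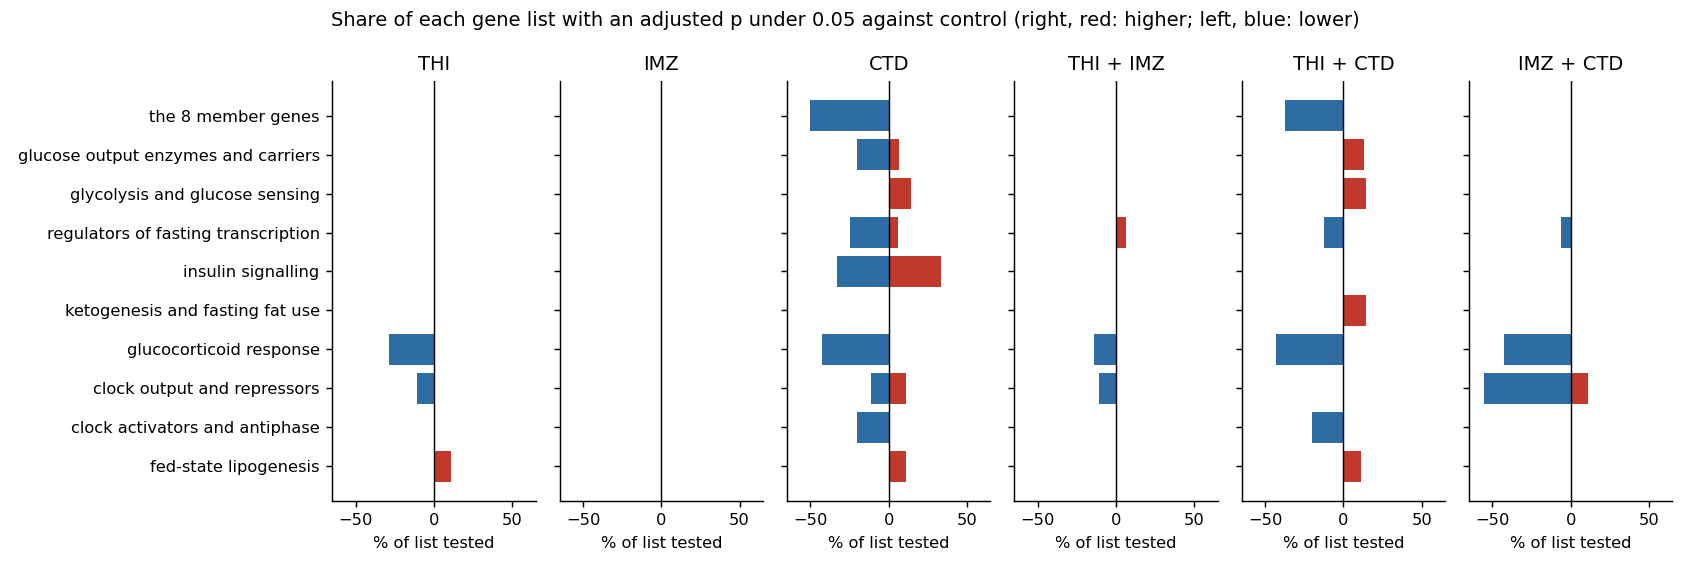
Share of each gene list called against control in each treatment, in percent of its tested genes, to the right for higher and to the left for lower genes. In CTD 3 of 15 glucose output genes were lower and 1 higher. In IMZ + CTD 5 of 9 clock output genes were lower and 1 higher, a change that the authors had already reported for several of them.

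Other genes of the pathway were counted from lists drawn up by function, with earlier results of these data known. These counts stand beside the shares of all genes called, which were 12.7% in CTD, 4.39% in THI + CTD and 1.46% in IMZ + CTD. Of 15 enzymes and carriers of glucose output, 3 were lower in CTD and 1 was higher, with a median log2 fold change of -0.05. Lower were Sds, serine dehydratase (-2.04 ± 0.51), Gpt, alanine aminotransferase (-0.57 ± 0.17), and Pc, pyruvate carboxylase (-0.37 ± 0.09). Pck2, the mitochondrial isoform of Pck1, was higher in CTD (0.45 ± 0.14) and in THI + CTD (0.50 ± 0.13). Gpi, an enzyme shared with glycolysis, was the other of the 2 of 15 that were higher in THI + CTD (0.53 ± 0.16). Pfkfb1, the main liver isoform of the family of Pfkfb3, was higher in CTD (1.25 ± 0.34) and in THI + CTD (1.19 ± 0.32), the only 1 of 7 glycolytic genes called in either.

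Of 16 regulators of fasting transcription, 4 were lower in CTD and 1 higher, where 12.7% of all genes were called in either direction. They were Sik1, a cyclic AMP-induced kinase (-0.79 ± 0.26), Klf15, a glucocorticoid-induced factor that promotes amino acid use (-0.74 ± 0.15), Foxo3 (-0.73 ± 0.19) and the glucagon receptor gene Gcgr (-0.39 ± 0.10), with Creb1 higher (0.30 ± 0.10). In THI + CTD Klf15 (-0.56 ± 0.14) and Foxo4 (-0.46 ± 0.10) were lower. In IMZ + CTD only Foxo4 was called (-0.40 ± 0.10), and in THI + IMZ only Ppara, the nuclear receptor of fasting fat use, which was higher (0.73 ± 0.14). Of 9 genes of insulin signalling, Irs1 (-0.45 ± 0.10), Insr (-0.28 ± 0.08) and Akt2 (-0.23 ± 0.06) were lower in CTD and Gsk3b (0.35 ± 0.11), Pdpk1 (0.30 ± 0.08) and Pik3ca (0.24 ± 0.07) were higher, and none was called in THI + CTD by edgeR.

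Of 7 glucocorticoid-responsive genes, 3 were lower in CTD, namely Dusp1 (-1.60 ± 0.30), Per1 (-0.96 ± 0.29) and Tsc22d3 (-0.55 ± 0.18), and the list had a median of -0.63, where 12.7% of all genes were called. In THI + CTD, 3 were lower, Tdo2 (-1.05 ± 0.21), Zbtb16 (-0.94 ± 0.28) and Tsc22d3 (-0.56 ± 0.16), with a median of -0.81, where 4.39% of all genes were called. In IMZ + CTD, Zbtb16 (-1.44 ± 0.29), Per1 (-1.38 ± 0.27) and Tsc22d3 (-0.66 ± 0.16) were lower. Of all genes, 1.46% were called there. Of 9 clock output and repressor genes tested, 5 were lower there (Usp2, Per1, Dbp, Hlf and Tef, by log2 fold changes of -1.62 to -0.73) and Nr1d2 was higher (0.77 ± 0.17), whereas in THI + CTD none of the 9 was called and in CTD Per1 was lower and Nr1d2 higher (0.56 ± 0.19). The authors had already reported Dbp, Tef and Hlf as lowered, and Per1 and Nr1d2 as changed, by IMZ + CTD in these livers. The clock count in that mixture is therefore no separate finding. Per1 was also lower in THI (-1.45 ± 0.27) and THI + IMZ (-1.12 ± 0.26), and Tsc22d3 in THI (-0.84 ± 0.16). Of 5 clock activators and antiphase genes, Nfil3 was lower in CTD (-0.53 ± 0.12) and THI + CTD (-0.50 ± 0.11). The part of the hour of sampling in the levels of the fasting genes was not tested. Of 7 genes of ketogenesis and fasting fat use, Cpt1a, which admits fatty acids to mitochondria, was higher in THI + CTD (1.21 ± 0.30). Of 9 fed-state lipogenic genes, Me1, malic enzyme, was the only 1 called in CTD, THI + CTD and THI. It was higher in each (2.23 ± 0.32, 2.08 ± 0.30 and 1.27 ± 0.30). The median log2 fold changes of the list were -0.003, 0.52 and 0.20. Of all genes, 12.7%, 4.39% and 0.543% were called there.

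Markers of other cells also moved in CTD, where 12.7% of all genes were called. All 3 red blood cell markers were higher, and their summed level was 119 to 146 CPM against 14.5 to 46.1 in controls. In THI + CTD, where Igfbp1, Tat and Irs2 were also lower, it was 21.1 to 165 CPM. There 1 of the 3 was called, against 4.39% of all genes. The summed level of the 6 Kupffer cell markers was 247 to 351 CPM in CTD and 255 to 310 in THI + CTD, against 303 to 490 in controls. In each of these treatments 2 of the 6 were lower. Among stellate and endothelial markers, Reln and Kdr were lower in both treatments. Col3a1 was higher in CTD and Col1a1 in THI + CTD. The 4 exocrine pancreas markers summed to 17.4 to 137 CPM in CTD and 21.3 to 145 in THI + CTD, against 194 to 468 in controls, so that no rat of either group reached the lowest control. Their sum was also below every control in THI, at 59.3 to 127 CPM, and in THI + IMZ, at 57.5 to 181 CPM. None of the 8 fasting genes was called in THI or THI + IMZ, but 6 and 7 of them had log2 fold changes below 0. A gene that was not called is not shown to be unchanged. In IMZ (97.5 to 206 CPM) and IMZ + CTD (81.8 to 215 CPM) the sum overlapped the controls. Cpa1, a pancreatic carboxypeptidase, was the 1 of 4 that was lower in CTD (-1.90 ± 0.56) and THI + CTD (-1.82 ± 0.49). It made up nearly all of the sum in controls, with a mean of 285 CPM against 4.59 for Cela1. The defining markers Prss1 and Amy2a3 had at most 3 and 6 counts in any library. The 8 hepatocyte markers summed to 185210 to 205900 CPM in CTD against 179470 to 241560 in controls, and Asgr1, a hepatocyte surface receptor subunit, was among those that were lower (-0.56 ± 0.16). The part of these markers in the lower fasting genes was not tested.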

How the data were processed

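Total RNA of liver from 31 rats was sequenced from stranded TruSeq libraries. The authors trimmed adapters with Skewer, checked quality with FastQC 0.11.5 and mapped and counted reads per gene with STAR 2.5.2b on Rnor_5.0, and they deposited raw counts for 26312 genes. The strand setting and annotation release are not given in the sources used here. The authors also deposited a normalized signal for 19904 genes, which equals the count divided by a size factor within a relative 5e-15 and was used only for that check. Library totals were 31820322 to 101230067 counts.

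Counts were tested with edgeR 4.0.16 in R 4.3.3 (quasi-likelihood, TMM, genes summing to 2 or more counts, 1 model with 7 group means, Benjamini-Hochberg over 19904 genes, threshold 0.05). Intervals are 95% and errors of fold changes are SE. Log2 CPM used a prior count of 2. Pearson r was computed after removing group means, among genes with a mean log2 CPM above 1. Alternatives were DESeq2 1.42.0 (size factors, Wald test), other count filters, the replicate number as a block, thinning to the smallest library, only the groups compared, and each rat left out in turn.

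All 9 genes were named in every group, of other lists those with an adjusted p under the threshold, and per gene up to 3 genes of closest pattern. Some items that this rule names are not reported here. The genes and lists were chosen with earlier results of these data known. In the lists, 6 genes were matched without regard to letter case. Rats of a group are separate animals. Figures were drawn with matplotlib 3.10.9.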

Additional observations from a re-analysis of the deposited data

Results flagged for a closer look

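The single compounds differed from each other, by a direct test between them, in Foxo1 and Tat. Foxo1 was lower in CTD than in THI by a log2 fold change of -0.60 and lower than in IMZ by -0.73, and Tat was lower in CTD than in IMZ by -1.09. The doses were 288 mg/kg for CTD, 108 for THI and 93 for IMZ. No rat stood far from the others of its group by Dixon's limit in any of the 48 combinations of a gene and a group of 4 or 8 rats, where chance flags about 1 in 20 groups. Igfbp1 was not called between CTD and IMZ by edgeR (log2 fold change -2.09, adjusted p = 0.102) but was by DESeq2 (adjusted p = 0.0404). The CTD group of 3 rats was too small for that limit.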

How the results depend on the processing

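Against control, the 3 calls in THI + CTD and that of Foxo1 in CTD held with any 1 rat left out, and those of Igfbp1, Tat and Irs2 in CTD did not. With each rat left out in turn, 1 to 5 of the 8 genes were called in CTD (4 with all rats, 1 without CTD replicate 2, where calls over all genes fell from 2518 to 1781, and 3 without CTD replicate 1, where they fell to 1470), 0 to 2 in CTD against THI and 1 to 2 in CTD against IMZ. DESeq2's Wald test called 2 genes in CTD against THI, Foxo1 and Pfkfb3, and no other count of the 8 genes moved by over 1.5 times outside the rats left out. No change of sign involved a gene called under either setting. Ppargc1a in THI + CTD, at 0.00 log2 units, took 6e-04 with no filter and 0.0017 with only the groups compared.

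The replicate numbers were not taken to pair the rats, as the labels give no animal, litter or batch that same-numbered rats share. The correlations between rats do not exclude that they share one. Same-numbered rats of different groups had a median correlation of deviations of 0.036 (24 of 78 pairs over 0.1), against -0.013 for other pairs (42 of 234 over 0.1), and 9 of 27 rats correlated best with their own number. With the number as a replicate block, 3 genes were called in CTD, as Irs2 was not (log2 fold change -0.94, adjusted p = 0.0891), 3 in THI + CTD, and 3 in CTD against IMZ. The replicate block turned these uncalled log2 fold changes positive. For Ppargc1a they were 0.22 (IMZ), 0.071 (CTD), 0.46 (THI + CTD) and 0.25 (IMZ + CTD). For Foxo1 they were 0.079 (THI), 0.0062 (THI + IMZ), 0.15 (THI + CTD) and 0.024 (IMZ + CTD). For Igfbp1 they were 0.21 (IMZ) and 0.27 (IMZ + CTD), for Pfkfb3 0.0075 (THI + IMZ) and 0.11 (IMZ + CTD), and in THI + IMZ 0.056 for Pck1 and 0.073 for Irs2. Numbers 5 to 8 occur only among the controls, so each of those rats took up its own block term. Under the block, the comparisons with control therefore rested on controls 1 to 4. The part of this in the changes of sign was not tested.

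With rats left out, uncalled log2 fold changes crossed 0 for Foxo1 in IMZ (-0.062 to 0.086) and THI + CTD (-0.16 to 0.022), Pck1 in THI + IMZ (-0.15 to 0.10), Ppargc1a in THI + CTD (-0.11 to 0.16), and Pfkfb3 in THI (-0.14 to 0.22) and IMZ + CTD (-0.25 to 0.15).

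Over all genes, calls in edgeR, with the replicate block and with DESeq2's Wald test were 108, 45 and 199 in THI, 50, 23 and 150 in IMZ, 235, 53 and 435 in THI + IMZ, 873, 348 and 1386 in THI + CTD, 290, 80 and 567 in IMZ + CTD, and 3, 6 and 54 in THI + IMZ against its sum. In CTD the block, in which controls 5 to 8 did not enter the comparison, gave 1571 against 2518. DESeq2 gave 174 against 57 and 603 against 230 for the sums of THI + CTD and IMZ + CTD (391 for the latter with the stricter filter), 12 against 2 between THI and IMZ, and 1461 against 930 between CTD and IMZ. With only the groups compared, IMZ had 93. Thinned libraries gave 1 between THI and IMZ.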
